A study of Drosophila melanogaster with 6 samples.

Results

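Open chromatin of *Drosophila* wing imaginal discs in which Cdk1 was knocked down (*Cdk1-i*) was set directly against that of discs overexpressing *fzr*, with 2 ATAC-seq libraries of each genotype. These 4 libraries are part of a series of 6, and the other 2, from *GFP*-expressing control discs, did not enter the choice of the regions. In ATAC-seq a transposase inserts adapters into accessible DNA, and each library is represented here by its deposited list of peaks, in which every peak has a fold enrichment over the local background. Merging the overlapping peaks of the 4 lists gave 42254 intervals (45905 with all 6 lists). Of these, 3250 held a peak in both *Cdk1-i* lists and in neither *fzr* list, 700 held one in both *fzr* lists and in neither *Cdk1-i* list, and 20547 held a peak in all 4.

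The *Cdk1-i* discs carried 2 RNAi transgenes against Cdk1 from different collections, the *fzr* discs a *UAS-fzr* transgene, and the control discs *UAS-GFP*. All 3 genotypes shared the ubiquitous *tub-Gal4* driver and a temperature-sensitive *tub-Gal80*, which blocks Gal4 at 17 °C. Larvae spent 7 days at 17 °C and 2 days at 31 °C, so that the transgenes were induced ubiquitously and the controls had the same heat step. Whether the discs also carried *UAS-Dcr-2*, which strengthens RNAi, is not given in the sources used here. Discs were pooled for each library, and the sex of the larvae is not given in the sources used here. Genotypes follow the sample labels. The lists themselves were deposited under names that exchange *Cdk1-i* and *fzr*, and with those names every direction below turns round while every count of differing intervals stays. A peak list holds no transcript level, so the knockdown and the overexpression could not be checked in these libraries.

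Cdk1 bound to Cyclin A or Cyclin B is the kinase that drives cells into mitosis. Fzr, the *Drosophila* Cdh1, activates the APC/C, a ubiquitin ligase that marks the mitotic cyclins for degradation, and its overexpression moves cells into the endocycle, in which S phases follow each other without mitosis. Both manipulations are aimed at mitotic Cdk1 activity, by different routes, and the comparison asks whether their accessible regions differ beyond the spread between libraries of 1 genotype.

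The sequences of 6 of the regions are shown first, because the motifs in them are counted over all intervals later. Each is the 200 bases around a peak summit of the RefSeq copy of the Release 6 genome (the dm6 coordinates of the lists), plus strand, with matches to the named motif on either strand in capitals. The first, at 5′ ends of *Hsp22*, *Hsp67Bc* and *CG4456*, had the highest percentile of the regions with a peak in the *Cdk1-i* lists alone, and its capitals mark a pair of inverted heat shock factor half-sites (GAANNTTC). The second, in *Dop1R2*, has an E-box (CACGTG), and it too had a peak in the *Cdk1-i* lists alone. The third, at the 5′ ends of *Acbp1* and *Piezo*, has a DNA replication-related element (DRE, TATCGATA), and the fourth lies 13140 bp from the nearest gene near the left telomere of 3L, with GAGA factor sites (GAGAG). Both had a peak in the *fzr* lists alone. The last pair, in *CG42747* and *Lmpt*, hold the Grainy head site ACCGGTT and had peaks in all 4 lists, and they were chosen after their values were seen.
Hsp22/Hsp67Bc (chr3L:9372444-9372643): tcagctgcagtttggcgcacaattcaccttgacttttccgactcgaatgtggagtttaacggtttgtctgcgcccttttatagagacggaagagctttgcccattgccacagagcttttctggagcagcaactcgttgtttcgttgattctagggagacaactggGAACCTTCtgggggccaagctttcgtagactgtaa
Dop1R2 (chr3R:29636116-29636315): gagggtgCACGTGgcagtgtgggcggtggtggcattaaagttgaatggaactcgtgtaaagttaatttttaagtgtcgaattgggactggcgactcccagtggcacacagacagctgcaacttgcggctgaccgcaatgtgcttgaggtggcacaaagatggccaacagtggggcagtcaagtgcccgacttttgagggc
Acbp1/Piezo (chr2L:8162396-8162595): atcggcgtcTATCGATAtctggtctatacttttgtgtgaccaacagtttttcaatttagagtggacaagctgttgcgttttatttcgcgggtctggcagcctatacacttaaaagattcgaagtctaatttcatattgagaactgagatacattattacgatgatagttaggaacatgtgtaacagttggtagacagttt
3L telomere side (chr3L:40436-40635): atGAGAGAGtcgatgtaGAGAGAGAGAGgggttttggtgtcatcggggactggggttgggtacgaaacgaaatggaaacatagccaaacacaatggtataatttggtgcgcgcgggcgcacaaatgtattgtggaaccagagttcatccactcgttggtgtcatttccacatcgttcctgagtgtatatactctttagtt
CG42747 (chr3L:6404230-6404429): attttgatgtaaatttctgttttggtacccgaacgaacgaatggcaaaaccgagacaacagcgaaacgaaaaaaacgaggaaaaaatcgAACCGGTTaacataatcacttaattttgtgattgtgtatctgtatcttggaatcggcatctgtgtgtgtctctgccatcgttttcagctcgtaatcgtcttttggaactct
Lmpt (chr3L:16888537-16888736): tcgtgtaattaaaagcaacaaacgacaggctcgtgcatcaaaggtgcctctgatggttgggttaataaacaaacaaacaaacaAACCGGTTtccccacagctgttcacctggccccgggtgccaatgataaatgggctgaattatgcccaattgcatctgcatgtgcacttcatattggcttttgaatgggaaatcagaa

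The libraries were alike in most respects except 1. The *Cdk1-i* lists held 36617 and 36100 peaks, the *fzr* lists 33335 and 27119, and the *GFP* lists 36715 and 35404. *fzr* replicate 2 stood apart, with the fewest peaks, the longest shortest peak (197 bp, against 143 to 169 bp in the others), a median peak GC content of 48.0% (49.5% or more in the others) and 12.1% of its peaks on X (15.5 to 16.2%). At the 20547 common intervals, the within-list percentile of fold enrichment differed by a median of 4.22 points between the *Cdk1-i* libraries and of 8.72 points between the *fzr* libraries. Between a *Cdk1-i* and an *fzr* library it differed by 6.24 to 7.13 points for *fzr* replicate 1 and by 10.3 to 11.2 points for *fzr* replicate 2. The spread within *fzr* was therefore larger than the distance from either *Cdk1-i* library to *fzr* replicate 1. The 12 wing disc marker genes (*vg*, *nub*, *ap* and others) each had a peak at a 5′ end in all 6 libraries, and none of the 5 fat body or 4 salivary gland markers had one in any. Of the markers of disc-associated myoblasts, 5 of 6 had one in every library, and of the haemocyte markers 3 of 5. Markers of other discs were open too, with 5′-end peaks at all 6 haltere and leg and all 6 eye-antennal markers (5 of each in *fzr* replicate 2), as were 2 or 3 of the 3 tracheal, 2 or 3 of the 4 neuronal and glial and 1 or 2 of the 4 germ line markers, so these peaks alone do not identify the disc.

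More regions were found in the *Cdk1-i* lists alone than in the *fzr* lists alone. The 3250 intervals of *Cdk1-i* made up 7.69% of all merged intervals and the 700 of *fzr* 1.66%. If the same 4 libraries are paired across genotypes, *Cdk1-i* replicate 1 with *fzr* replicate 1 had 653 intervals of their own and the remaining pair 369, while *Cdk1-i* replicate 1 with *fzr* replicate 2 had 339 and the remaining pair 676. The *Cdk1-i* count thus exceeded every cross-genotype count, whereas the *fzr* count was close to the highest of them. With an equal number of 27119 peaks in each list, the *Cdk1-i* count was 1227 and the *fzr* count 1000, both above the 489, 517, 537 and 575 of the cross-genotype pairs, so both the ratio of the genotypes and their excess over the other pairings depended on list length. With a minimum −log10 q of 5 the *fzr* count was 621, below the 677 of 1 cross-genotype pair, and with peaks of at least 197 bp it was 538, against 535 for the highest of them. The *Cdk1-i* count was above every cross-genotype count in each of these settings. With 2 libraries against 2, an exact permutation test cannot reach a two-sided p below 0.333, and the counts carry no p.

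**Figure D1:**
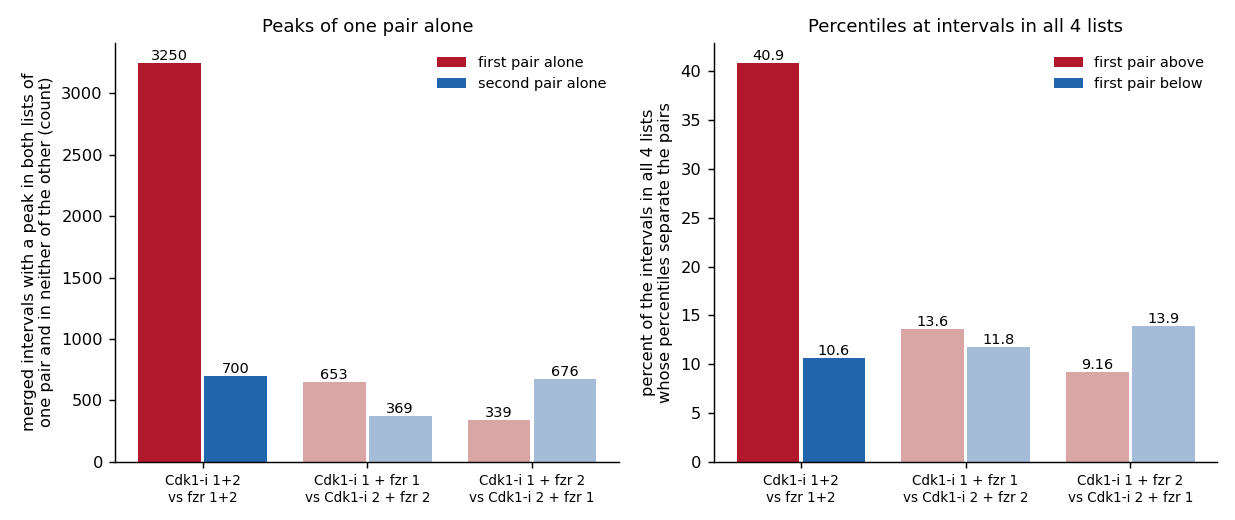
Merged intervals with a peak in both lists of one pair and neither of the other (left, counts) and separation of the percentiles at the 20547 intervals in all 4 lists (right, percent), for the genotypes (dark bars) and for the 2 cross-genotype pairings (pale bars). The genotypes gave 3250 and 700 intervals, against 339 to 676 for the other pairings, and separated 51.5% of common intervals, against 25.5% and 23.0%.

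The regions of one genotype alone were mostly weak peaks. Regions of the *Cdk1-i* lists alone had a median percentile of 21.8, and 137 of the 3250 reached 50 and 10 reached 75. Regions of the *fzr* lists alone had a median percentile of 39.6, and 242 of the 700 reached 50 and 64 reached 75. The pairs that crossed genotypes had medians between 18.4 and 20.3. Thus the strong regions were more numerous on the *fzr* side although its total was smaller. Without *fzr* replicate 1 this order turned round, with 1731 *Cdk1-i* and 900 *fzr* regions at the 50th percentile or above and 411 and 243 at the 75th. Of the 64 strong *fzr* regions 32 rested on a peak shorter than the 161 bp that both *Cdk1-i* lists reach. Any overlap counts as a match, so a longer *Cdk1-i* peak could still have matched such a short peak. With peaks of at least 197 bp only, 219 of 2970 *Cdk1-i* regions and 174 of 538 *fzr* regions reached the 50th percentile.

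Of the *Cdk1-i* regions of at least 200 bp on X, 2L, 3L, 3R or 4, the highest by mean percentile lay at the *Hsp22* and *Hsp67Bc* 5′ ends. *Hsp22* encodes a mitochondrial small heat shock protein and *Hsp67Bc* another small heat shock protein. The interval (3L 9372487–9372706) stood at percentiles 82.9 and 86.4 in the *Cdk1-i* lists (fold enrichment 7.26 and 7.91), with no peak in either *fzr* list or either *GFP* list. Its peaks were 169 and 218 bp long, and the shorter is below the 197 bp minimum of *fzr* replicate 2, though not below that of *fzr* replicate 1. The heat shock element pairs searched for in the sequence above (GAANNTTC or TTCNNGAA, added after seeing the data) were present in 6.52% of the *Cdk1-i* regions, 6.71% of the *fzr* regions and 6.69% of all intervals. Among the 19 annotated heat shock genes, 8.33% of the 36 intervals within 5 kb were of the *Cdk1-i* lists alone, and none was of the *fzr* lists alone. Over all merged intervals these shares were 7.69% and 1.66%, so the list's share was near that of all. These were 3 intervals, and the other 2 lay beside *stv* (in *CG10089*) and beside *Hsc70-4* (at the 5′ end of *Amt*), at percentiles of 32.9 or less. The peak at *Hsp22* is therefore the strong one of the group.

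The next *Cdk1-i* regions were at promoters on X and at distal sites. *Lst8*, a subunit of the TOR complexes, had its 5′-end peak (X 9605723–9606025) at percentiles 87.4 and 81.5 in the *Cdk1-i* lists, none in the *fzr* lists and 88.3 in 1 *GFP* list. *e(r)*, a small conserved nuclear protein, stood at 82.8 and 83.6 at its 5′ end (X 8905694–8906021), and *CG7889* at 81.4 and 83.2 (X 19243554–19243878), both without a peak in *fzr* and with peaks in both *GFP* lists. In an intron of the dopamine receptor gene *Dop1R2* (3R 29635969–29636452) the values were 87.0 and 82.0 in *Cdk1-i*, against none in *fzr* and 70.5 and 49.0 in *GFP*. The remaining 5 were *CG7824*, *TORIP* and the intergenic neighbourhoods of *Proc-R*, *CG10026* and *CG2772*, with percentiles between 68.5 and 83.3. All peaks of *Lst8*, *e(r)*, *CG7889*, *Dop1R2*, *CG7824*, *Proc-R* and *CG10026* were longer than 197 bp, a length that both *fzr* lists hold.

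Of the 10 highest *fzr* regions within the same limits of length and chromosome, 8 were 5′ ends of genes. The divergent promoter of *Dlg5*, a polarity scaffold, and *CG4970* (2L 11517063–11517323) stood at percentiles 94.1 and 96.2 in the *fzr* lists, had no peak in the *Cdk1-i* lists and stood at 96.2 and 97.6 in the *GFP* lists. At the promoter of the RNA helicase gene *Rm62* (3R 6008543–6008893) the *fzr* values were 97.1 and 88.0, with no peak in any other list. The shared promoter of *Ino80*, a chromatin remodeller, and *Aptx*, a DNA end-processing enzyme (3R 19403123–19403487), stood at 93.7 and 89.1 in *fzr* and at 93.9 in 1 *GFP* list. *Svil*/*CG15877*, *CG46339*, *NdufV3*/*CG1737*, *IntS6*/*Rtel1* and *Sirt2*/*CG4360* complete the 8, with *fzr* percentiles of 82.8 to 97.7. In *fzr* replicate 1 the peaks of 7 of these 8 were 143 to 167 bp long and that of *Dlg5* 184 bp, while in replicate 2 all 8 were 245 to 693 bp. For most of these promoters the peak length therefore moves with the difference, and its part in the absence from the *Cdk1-i* lists was not tested.

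The remaining 2 of the 10 were long peaks near the left telomere of 3L. The interval 3L 40065–40733 stood at percentiles 97.3 and 91.4 in *fzr* with peaks of 659 and 649 bp, had none in *Cdk1-i*, and stood at 83.3 and 69.1 in *GFP*. Its neighbour at 41573–42087 stood at 92.0 and 86.0 in *fzr* and at 66.1 and 58.1 in *GFP*, and a further one at 34577–35043 at 86.6 and 84.5 in *fzr* and at 42.7 and 14.8 in *GFP*. Neither *Cdk1-i* list had a peak at any of the 3. Other *fzr* regions with long peaks in both libraries, chosen after seeing their values, were the 5′ ends of *Piezo*, a mechanosensitive channel, and *Acbp1* (76.6 and 81.0 in *fzr*, peaks of 408 and 844 bp), those of *Pss* and *Nubp2* (78.8 and 79.0, with 81.9 and 82.3 in *GFP*), and an intron of *Myo81F* in the centromere-proximal part of 3R (67.0 and 85.5, with 87.0 and 89.5 in *GFP*). The *Dscam4* 5′ end (3L 8238627–8239079), which overlaps an *Rt1a* retrotransposon, stood at 88.1 and 73.0 in *fzr* with no peak in the other 4 lists.

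**Figure D2:**
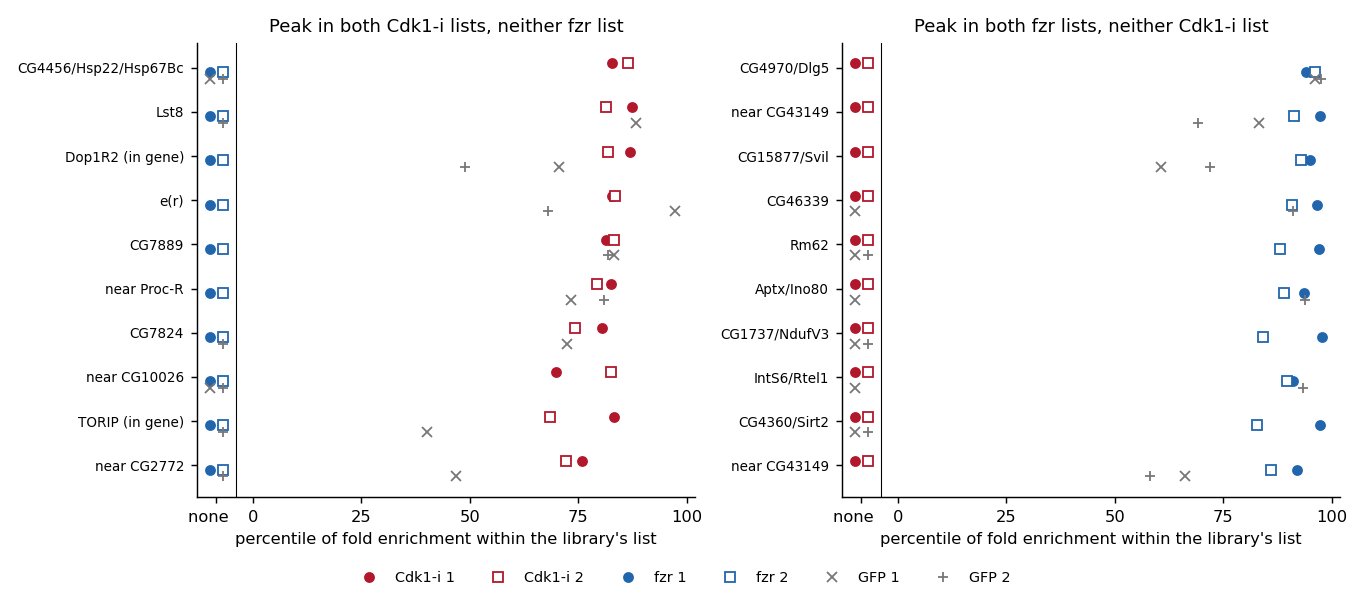
Within-list percentile of fold enrichment in each library for the 10 highest regions of the *Cdk1-i* lists alone (left) and of the *fzr* lists alone (right), and points left of the vertical line are libraries without a peak. *GFP* libraries, which did not enter the choice, had a peak at 8 of the 10 *Cdk1-i* regions and at 7 of the 10 *fzr* regions.

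Most of the differing regions had a peak in at least 1 control list, though less often in both than merged intervals at large. Of the *Cdk1-i* regions, 41.1% had a peak in both *GFP* lists, 35.7% in 1 and 23.2% in none. Of the *fzr* regions, 31.7% had a peak in both, 38.1% in 1 and 30.1% in none. Of all merged intervals, 66.2% had a peak in both, 17.8% in 1 and 15.9% in none, and of the common intervals 94.9% had one in both. With peaks of at least 197 bp only, 12.9% of the *Cdk1-i* regions and 16.2% of the *fzr* regions had no *GFP* peak, against 23.2% and 30.1% of all lengths. In that setting 11.4% of all merged intervals had none, so the *Cdk1-i* share was near that of all.

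The kinds of region differed in position. On X lay 641 of the *Cdk1-i* regions (19.7%) and 70 of the 700 *fzr* regions, against 15.6% of all merged intervals. Without *fzr* replicate 2, whose list is low on X, these shares were 15.6% and 17.2% and the order of the genotypes turned round. On chromosome 4, which is largely heterochromatic, the *Cdk1-i* lists alone held 4 of 242 intervals (1.65%) and the *fzr* lists alone 16 (6.61%). On the Y none of 43 intervals was of *Cdk1-i* alone and 8 were of *fzr* alone, and on unplaced scaffolds 1 and 78 of 476. In the centromere-proximal 10% of the long arms and X, *Cdk1-i* alone held 62 of 1853 intervals (3.35%) and *fzr* alone 104 (5.61%), and away from both arm ends 8.05% and 1.27% of 35087. The *fzr* side was thus the larger on chromosome 4, the Y, scaffolds and proximal arms, and the *Cdk1-i* side elsewhere. On chromosome 4 the order rested on short peaks, since with peaks of at least 197 bp there were 6 *Cdk1-i* and 5 *fzr* regions. Without *fzr* replicate 2, the proximal shares were 2.71% of the *Cdk1-i* regions and 7.06% of the *fzr* regions, against 1.91% and 17.4% with it. Fewer copies of a sequence per cell and less accessible copies cannot be told apart in these lists.

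**Figure D3:**
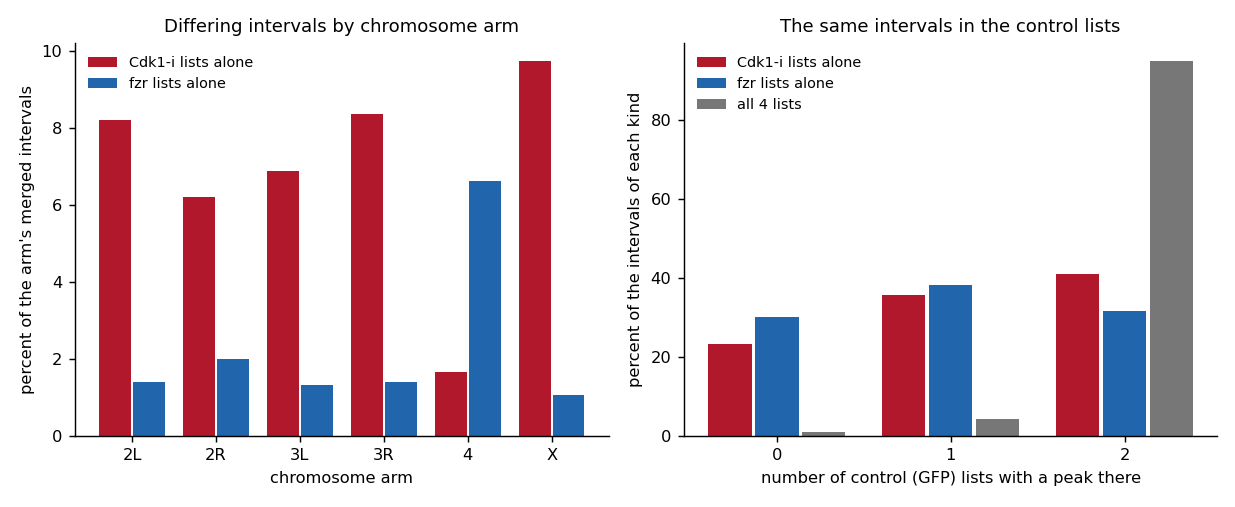
Percent of each chromosome arm's merged intervals that were of the *Cdk1-i* or the *fzr* lists alone (left), and percent of the intervals of each kind with a peak in 0, 1 or 2 *GFP* lists (right). The *Cdk1-i* share was the larger on every arm plotted except chromosome 4 (1.65% against 6.61%).

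Gene 5′ ends (within 500 bp of an annotated transcript start) were less frequent among the *Cdk1-i* regions. They took up 297 of the 3250 (9.14%), against 130 of the 700 *fzr* regions (18.6%) and 16.4% of all merged intervals. With peaks of at least 197 bp the shares were 9.36% and 14.3%, and without *fzr* replicate 2 9.09% and 21.6%. Without *fzr* replicate 1 they were 14.1% and 18.3%, against 16.1% of all merged intervals, so the size of the deficit depended on that library. Introns held 53.4% of the *Cdk1-i* and 42.7% of the *fzr* regions, against 49.5% of all merged intervals. Regions of *Cdk1-i* alone had a median GC content of 49.5% in the 200 bases around the summit and those of *fzr* alone of 44.5%, against 49.0% in all intervals. Without *fzr* replicate 2 the medians were 49.0% and 46.5%.

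Some motifs differed between the kinds and others did not. The kinds also differed in peak strength, with median percentiles of 21.8 for *Cdk1-i* alone and 39.6 for *fzr* alone. Common intervals with a DRE, a Grainy head site or a GAGA factor site were strong. Their medians in *Cdk1-i* replicate 1 were 83.6, 82.4 and 74.5, against 68.3 for all common intervals. The part of peak strength in the motif shares was not tested. Every motif was searched on both strands, and a match is a description of the sequence and not of binding. DREs, the promoter element of many housekeeping genes, were in 5 of the 3250 *Cdk1-i* regions (0.154%) and in 14 of the 700 *fzr* regions, as in the *Acbp1*/*Piezo* sequence above, against 0.921% of all. Among peaks of at least 197 bp the DRE shares were 0.236% and 1.49%. E-boxes were in 143 of the 3250 *Cdk1-i* regions and in 16 of the 700 *fzr* regions (2.29%), against 3.59% of all. Of the 10 highest *Cdk1-i* regions, those of *Dop1R2*, *CG7824* and *CG10026* had an E-box. In the same 10, *e(r)*, *CG7889* and *CG2772* had a GAGA factor site. *Lst8* had a DRE, and *Lst8* and *CG7824* had an E2F site (GCGCGAAA), so the E-box did not stand out among these 10. The Grainy head site was in 13 *Cdk1-i* regions (0.400%) and 12 *fzr* regions (1.71%), against 1.63% of all. GAGA factor sites were in 23.4% of the *Cdk1-i* and 26.0% of the *fzr* regions, both below the 27.7% of all intervals. AP-1 sites (TGANTCA) were in 3.94% of the *Cdk1-i* and 5.14% of the *fzr* regions (4.29% of all), and Scalloped sites (CATTCC) in 13.1% and 10.9% (11.7% of all). Stat92E sites (TTCNNNGAA) were near the share of all intervals in both kinds, with 3.63% and 3.86% against 3.81%. Zelda sites (CAGGTAG), with 1.02% and 0.571%, and E2F sites (GCGCGAAA), with 0.585% and 0.714%, were below the 1.49% and 0.750% of all.

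At the 20547 common intervals both *Cdk1-i* percentiles exceeded both *fzr* percentiles in 8396 (40.9%) and lay below both in 2187 (10.6%). Since 4 different values separate under exactly 1 of the 3 pairings, the shares add up to 100%, and the genotypes took 51.5%, against 25.5% and 23.0% for the cross-genotype pairings. The surplus of higher *Cdk1-i* values went with the shorter *fzr* lists. The median difference was 4.63 points over all common intervals, 2.56 and 2.64 points against *fzr* replicate 1 and 6.07 and 6.08 points against *fzr* replicate 2. When percentiles were taken among the common intervals alone, the median difference was 0.134 points and the split was 23.4% above and 22.4% below, and with equal numbers of peaks 24.7% above and 21.0% below. The genotypes were then still the best separated of the 3 pairings with equal numbers, at 45.8% against 29.5% and 24.6%.

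No single interval passed the test. With limma on the percentiles and Benjamini-Hochberg adjustment, 0 of 20547 intervals were called higher in *Cdk1-i* (0%) and 0 lower (0%), and the smallest adjusted p was 0.291. At an unadjusted p under 0.05 there were 2612 higher (12.7%) and 498 lower (2.42%) in *Cdk1-i*, or 1197 and 1264 with percentiles among the common intervals alone. limma on quantile-normalized log2 fold enrichment called none either (1285 higher and 1351 lower at an unadjusted p under 0.05). The median standard error of a difference was 8.32 points, and without *fzr* replicate 1 the same test called 4550 higher and 712 lower, with the remaining *fzr* library assumed to vary like the *Cdk1-i* ones. Without *fzr* replicate 2 it called 1 and 0.

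The intervals with the smallest p are therefore named as uncalled, each with an adjusted p of 0.291. In an intron of *PH4alphaEFB*, a collagen prolyl hydroxylase (3R 30483019–30483733), the *Cdk1-i* percentiles were 96.6 and 97.4 and the *fzr* percentiles 70.5 and 73.0 (*GFP* 85.5 and 82.3). In an intron of the cadherin gene *CadN2* they were 62.5 and 68.5 in *Cdk1-i* and 6.11 and 6.92 in *fzr*, and in *trv* 75.7 and 77.0 in *Cdk1-i* and 19.6 and 14.1 in *fzr*. The *GFP* values of *CadN2* (42.7 and 43.9) and of *trv* (49.7 and 56.4) lay between those of the other genotypes. The same order held at *PH4alphaEFB*, at *mtd* (85.4 and 77.7 in *Cdk1-i*, 29.2 and 11.4 in *fzr*, 49.7 and 60.4 in *GFP*) and near *CG42534* (78.2 and 79.3 in *Cdk1-i*, 12.3 and 22.9 in *fzr*, 45.3 and 54.7 in *GFP*). Intervals near *eIF4E4* and in *bru3* and *SPR* complete this direction. All 8 lay in introns or between genes.

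In the other direction, several of the lowest p-values were at a tRNA gene and in proximal heterochromatin. At *tRNA:Lys-TTT-2-1* (3R 6818242–6819460) the *Cdk1-i* percentiles were 6.35 and 8.05 and the *fzr* percentiles 62.7 and 69.5 (*GFP* 50.8 and 67.5). Of the 81 common intervals at tRNA 5′ ends, 31 had both *Cdk1-i* values above (38.3%) and 15 below (18.5%), against 40.9% and 10.6% of all common intervals, so the genes of this class did not all follow it. An interval 478186 bp from *Myo81F* in proximal 3R (87370–88890) stood at 43.9 and 36.8 in *Cdk1-i* and 88.3 and 90.3 in *fzr* (*GFP* 90.7 and 89.5), and its neighbour at 101647–102518 at 75.1 and 71.9 in *Cdk1-i* and 94.5 and 95.9 in *fzr* (*GFP* 99.2 and 96.1). In an intron of *CG15822* the *Cdk1-i* values were 6.39 and 5.27 and the *fzr* values 72.0 and 59.3 (*GFP* 21.5 and 55.8). The promoter shared by *Dhc1*, a dynein heavy chain, and *Nepl12* stood at 91.2 and 90.9 in *Cdk1-i* and 98.6 and 99.0 in *fzr* (*GFP* 91.4 and 98.5). Intervals near *Ptp99A* and *lncRNA:CR45506* and on 1 unplaced scaffold complete the 8 that are named. Near *Ptp99A* the *GFP* values (86.5 and 82.8) lay nearer *Cdk1-i* (82.9 and 81.5) than *fzr* (97.9 and 96.0). Near *lncRNA:CR45506* *GFP* (88.6 and 88.5) lay between *Cdk1-i* (61.4 and 71.9) and *fzr* (93.9 and 97.4). *GFP* therefore did not side with *fzr* at every interval. In each direction 2 further intervals lie on 2R and are not named.

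**Figure D4:**
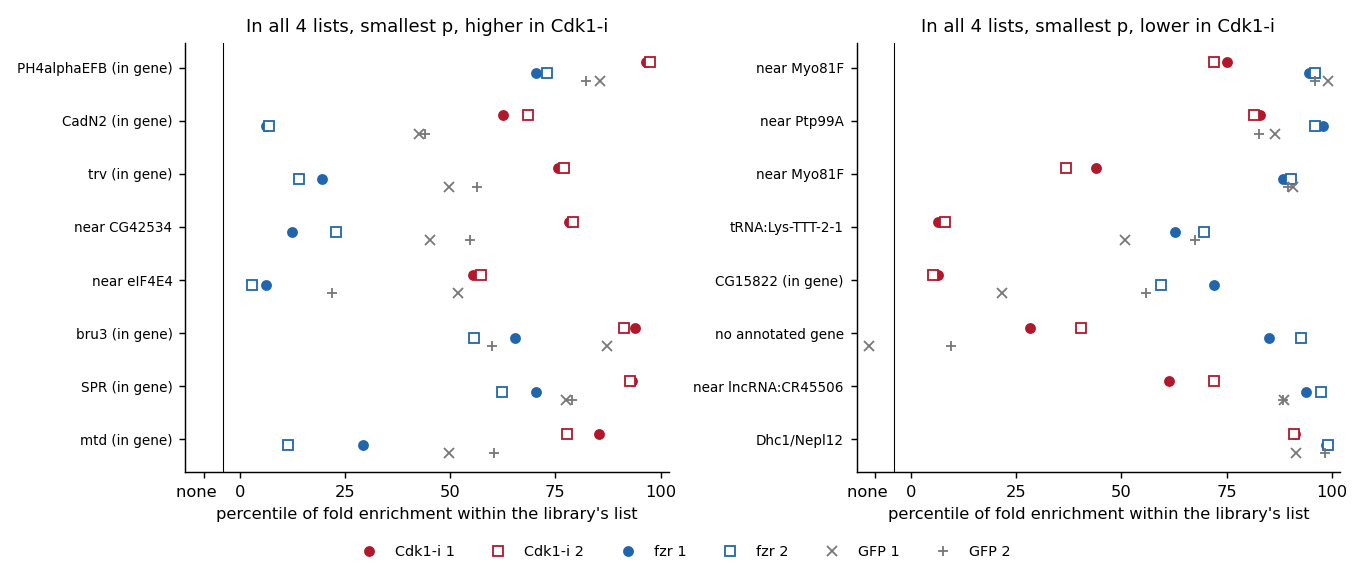
Within-list percentiles in each library at the intervals in all 4 lists with the smallest limma p, higher (left) or lower (right) in *Cdk1-i*, without those on 2R. The *Cdk1-i* and *fzr* points do not overlap in any of them, which goes with the choice by smallest p. Of all common intervals, 51.5% separate the genotypes in this way, and each adjusted p by limma was 0.291.

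The difference at common intervals moved with base composition. In the GC-poor group of intervals (up to 47.0% GC) both *Cdk1-i* values lay above in 28.0% and below in 18.0%, in the middle group (up to 51.5%) in 43.7% and 8.33%, and in the GC-rich group in 49.6% and 5.87%. The median difference was 1.14, 5.65 and 6.49 points from low to high GC, or −3.25, 0.720 and 1.91 points with percentiles among common intervals alone. The gradient was steeper against *fzr* replicate 2 (0.617 to 9.82 points) than against replicate 1, where the GC-poor group stood at 1.19, the middle at 3.23 and the GC-rich at 2.94 points, without a steady order. *fzr* replicate 2 also had the lowest GC content of the 6 lists, and how far GC accounts for the differences was not tested.

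Intervals with a Grainy head site stood out from this shift. Grainy head is an epithelial transcription factor that opens chromatin at its sites. At the 472 common intervals with ACCGGTT, both *Cdk1-i* values lay above in 23.5% and below in 22.0%, against 41.3% and 10.4% of the 20075 without it, and the median differences were 0.0581 and 4.81 points. Against *fzr* replicate 1 the medians were −0.0613 and 2.59 points and against replicate 2 0.00239 and 6.28 points. With percentiles among common intervals alone the medians were −2.87 and 0.212 points, so the sign with the site depends on that scale while the distance between the groups remained. In the GC-poor group the medians with and without the site were −2.28 and 1.33 points, in the middle group 0.817 and 5.82 points, and in the GC-rich group 0.821 and 6.62 points. Intervals with the site were also stronger, with *Cdk1-i* medians of 82.4 and 81.2, against 67.9 and 67.5 without it. Among common intervals alone, the medians with and without it were −0.747 and 0.377 points at 5′ ends and −3.11 and 0.117 points elsewhere. How far peak strength accounts for the difference was not tested. The site was in 4.76% of the intervals with both *Cdk1-i* values below, 1.32% of those with both above and 2.30% of all common intervals. Of the sequences shown above, *CG42747* stood at 15.1 and 29.6 in *Cdk1-i* and 50.4 and 86.2 in *fzr*, and *Lmpt* at 3.29 and 31.8 in *Cdk1-i* and 49.0 and 49.2 in *fzr*.

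Other groups differed less or along with GC. The 180 common intervals with a DRE had a median difference of 1.03 points, against 4.69 without it, and within the GC-poor group, which holds 143 of them, 0.122 against 1.21 points. E-boxes went the other way, with 6.56 against 4.56 points, and in the GC-rich group 9.42 against 6.39. Gene 5′ ends had a median difference of 2.22 points and other intervals of 5.48 points, 0.654 and 3.33 against *fzr* replicate 1 and 3.30 and 7.03 against replicate 2. Among common intervals alone the median at 5′ ends was 0.347 points, so their lower value belonged to the within-list scale. Intervals with a GAGA factor site had 3.80 and those with a Scalloped site 5.70 points.

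**Figure D5:**
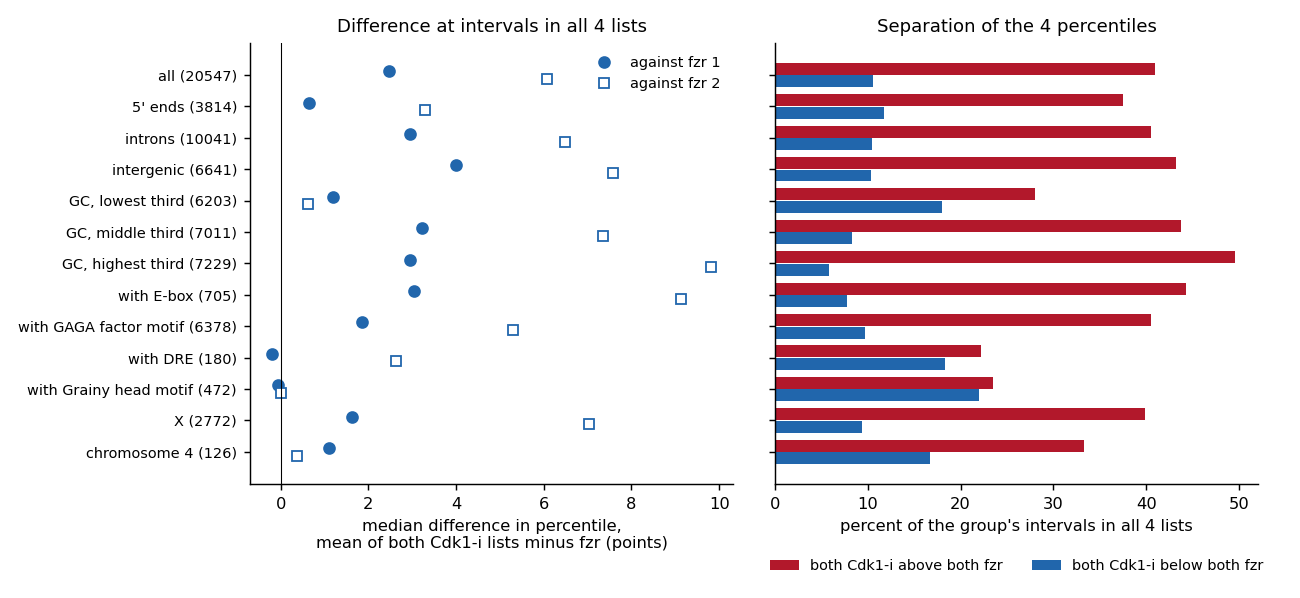
Median difference in percentile between the mean of the *Cdk1-i* lists and each *fzr* library (left, points) and percent of intervals separated in each direction (right), for groups of the intervals in all 4 lists, with the number of intervals in parentheses. Intervals with a Grainy head site lay at −0.0613 and 0.00239 points, against 2.48 and 6.07 points for all intervals.

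At the targeted genes, *Cdk1* has 1 interval at its 5′ end, which it shares with *mRpS7* (2L 10385800–10386277). It stood at 32.6 and 28.9 in *Cdk1-i* and 52.3 and 74.2 in *fzr*, and 1 *GFP* list had it at 75. The *Cdk1-i* and *fzr* values do not overlap, which holds for 51.5% of all common intervals and in this direction for 10.6%. limma gave an adjusted p of 0.300. RNAi acts on the transcript, so this value does not check the knockdown. Over *fzr* (X 4667290–4679537) lie 7 intervals. At the 5′ end X 4678966–4679285 the percentiles were 63.6 and 58.5 in *Cdk1-i* and 63.9 and 34.0 in *fzr*, which overlap. At another 5′ end, X 4677557–4677816, they were 64.5 and 47.0 in *Cdk1-i*, against 40.8 in *fzr* replicate 1 and no peak in replicate 2, which do not overlap. An intronic interval at 4670212–4670383 had peaks of 172 bp in both *Cdk1-i* lists (28.3 and 24.6), none in *fzr* and one in *GFP* replicate 2 (43.5). Of the *Cdk1-i* and *fzr* lists, only *fzr* replicate 2 had a peak at 4679494–4679841 (64.5), and *GFP* replicate 2 had one too (70.1). Whether the *UAS-fzr* transgene carries any of these sequences is not given in the sources used here, so the peaks cannot show whether it is present. Of the proapoptotic genes, *rpr* had its 5′ end at 69.3 and 70.3 in *Cdk1-i* and 68.8 and 50.9 in *fzr*, and *hid* at 96.6 and 93.3 in *Cdk1-i* and 92.1 and 89.1 in *fzr*. At the 5′ end of *grim* only *Cdk1-i* replicate 2, of these 4 lists, had a peak, at 7.37. Of the 5 intervals within 5 kb of the gene, 3 had peaks in all 4 lists.

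In the gene lists that bear on the cell cycle, few intervals differed. Around the 26 annotated genes of mitotic entry and the APC/C, 2 of 86 intervals were of *Cdk1-i* alone and 2 of *fzr* alone (2.33% each, against 7.69% and 1.66% of all intervals). Those of *Cdk1-i* were the *fzr* intron and an intergenic site near *Rca1*, an APC/C inhibitor (38.7 and 53.2). Of the *fzr* ones, an interval beside *pim*, the *Drosophila* securin, stood at 72.9 and 73.0, with peaks of 149 and 488 bp, and lies at the 5′ end of the neighbouring *lft*. Around the 29 G1/S, endocycle and licensing genes, 3 of 118 intervals were of each kind. Beside *Skp2*, a ubiquitin ligase subunit, the 5′ ends of *CG14645* and *CG9776* stood at 87.4 and 89.9 in *fzr* (peaks of 154 and 632 bp) with no peak in the *Cdk1-i* or *GFP* lists. The 5′ end of *Skp2* itself had a peak in all 4 lists, at 92.7 and 94.7 in *Cdk1-i* and 93.7 and 90.1 in *fzr*. *Cdk1-i* regions lay beside the replication genes *Cdc6* and *Cdc45* and beside *E2f2*, outside the gene bodies, with percentiles of at most 34.9. At common intervals of this list both *Cdk1-i* values lay above in 31.2% and below in 20.3%, against 40.9% and 10.6% of all.

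Over the 12 gene lists, which hold 218 annotated genes, 62 intervals at 46 genes were of *Cdk1-i* alone and 27 at 26 genes of *fzr* alone. An interval within 5 kb can lie in a neighbour. Of the *Cdk1-i* ones 41 lay in or at the 5′ end of the list gene itself and 1 of these at its 5′ end, that of *Hsp22* and *Hsp67Bc*, and of the *fzr* ones 16 and 4. The share of intervals of *Cdk1-i* alone ran over the lists between 0 and 8.33% and exceeded that of all intervals in 2 lists, heat shock and the sequences carried by or beside the transgenes, and that of *fzr* alone ran between 0 and 4.00% and exceeded it in 6. The Hippo and growth list, which restrains or drives organ size, had 12 of 156 intervals of *Cdk1-i* alone (7.69%, the share of all intervals) and 0 of *fzr*, of which 5 were in introns of *app*, a palmitoyltransferase of the Fat pathway, at percentiles of 15.7 to 39.8. In the caspase and proapoptotic list *hid* had a site of *fzr* alone between genes (32.8 and 3.19). In the DNA damage list the 2 regions of *Cdk1-i* alone lay beside *nbs* and *DNAlig4*, both DNA repair genes, in the neighbours *Naa60* and *CG15760*, at 34.8 or less.

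In the signalling and patterning lists most named regions stood below the 50th percentile. The JNK phosphatase gene *puc* had a region of *fzr* alone in its body (49.8 and 4.45), and *chinmo*, a BTB zinc finger gene, one of *Cdk1-i* alone (40.5 and 36.8). The cytokine gene *upd3* had a region of *Cdk1-i* alone at 31.3 and 21.0, and *Ptp61F*, a JAK/STAT phosphatase, 1 of *Cdk1-i* (49.4 and 25.6) and 2 of *fzr* (27.4 or less). Of the 512 intervals around 39 patterning genes 15 were of *Cdk1-i* alone (2.93%) and 8 of *fzr* alone (1.56%), against 7.69% and 1.66% of all merged intervals. The strongest of *fzr* lay within *bi* (54.3 and 74.0) and beside *ci*, in an antisense RNA gene (54.7 and 66.6). Those of *Cdk1-i* lay within *nub*, *wg*, *bi*, *hh*, *hth* and *ct* or beside *nub*, *salm*, *Dad* and *sc*, at 33.6 or less. The ecdysone gene *Eip78C* had regions of both kinds in its body. Of the transgene-related sequences, *alphaTub84B*, whose promoter drives Gal4 and Gal80, had a region of *Cdk1-i* alone beside it, at a 5′ end of *Tailor* (35.5 and 38.1), while its own 5′ end stood at 91.8 and 91.8 in *Cdk1-i* and 86.7 and 80.1 in *fzr*.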

How the data were processed

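Peak lists of 6 ATAC-seq libraries were used, 2 per genotype. Per the labels and the study's methods, the authors ran nf-core/atacseq: BWA-MEM alignment against dm6, a blacklist filter, and MACS2 peak calling for every library separately. The fold enrichment in the deposited lists is a ratio that the authors computed over the local background. The −log10 p and −log10 q in the deposited lists are those of MACS2, and the deposited score is the −log10 q as a whole number times 10. The authors tested counts with DESeq2, but counts were not used here, so depth is unknown and no count model was fitted. The lowest −log10 q was 2.00 to 2.16.

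Intervals and percentiles of fold enrichment within each list were computed with Python 3.11.15, and percentiles at intervals in all 4 lists were compared with limma 3.58.1 (intensity trend, Benjamini-Hochberg, threshold 0.05). Replicates are called biological by the study, and p-values measure the spread between 2 libraries. Genes came from the Ensembl 115 annotation, and GC and motifs from the 200 bases around the summit of the highest-ranked peak. Named were *Cdk1*, *fzr*, *rpr*, *hid* and *grim*, the 10 highest intervals of at least 200 bp of each genotype alone on arms other than 2R, the 10 common intervals with the smallest p in each direction, and members of the lists with a differing interval within 5 kb. Intervals on 2R were counted but are not named. The comparison, members and lists were chosen with earlier results of these data known. On simulated data limma recovered 199 and 200 of 200 intervals shifted by 35 points among 20547, at an SD of 5 points, and the interval counts were recovered exactly. That SD was the same for every interval and lay below the median standard error of 8.32 points in the data. In the data a difference of 59.0 points (*CadN2*) had a limma adjusted p of 0.291. The recovery therefore checks the code and does not give the power of the real comparison. Alternatives were a minimum −log10 q of 5, 27119 peaks per list, an overlap of 0.5 of the shorter peak, peaks of at least 197 bp, 2L, 3L, 3R and 4 alone, ranking by −log10 p, percentiles among common intervals, log2 fold enrichment, no trend, a replicate block and leaving out each library. Groups by GC, each *fzr* library on its own, the long-peak regions and heat shock elements were added after seeing the data.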

Additional observations from a re-analysis of the deposited data

How the results depend on the processing

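Peak counts and shares depended mainly on list length and on single libraries. With 27119 peaks per list there were 1227 *Cdk1-i* regions, 24.7% of common intervals with both *Cdk1-i* values above and 21.0% with both below, a median difference of 0.279 points, and 11 of the 21 named common intervals (20 with the smallest p and the *Cdk1* 5′ end) kept a peak in all lists, each in its direction. Percentiles among common intervals alone gave 23.4% above, 22.4% below and 0.134 points. On 2L, 3L, 3R and 4 alone there were 2126 *Cdk1-i* and 388 *fzr* regions, and 6 of the 10 named *Cdk1-i* regions lie there. With peaks of at least 197 bp, 2 of the 10 named *fzr* regions stayed. Leaving out 1 library gave 4729 to 8568 *Cdk1-i* regions, 1027 to 3649 *fzr* regions, 50.9 to 61.4% above, 17.1 to 24.5% below and, by limma, 0 to 4550 called higher and 0 to 712 called lower, both highest without *fzr* replicate 1. Fewer lists make each definition easier to meet. limma with the replicate block called 15 higher and 23 lower, although the numbers do not pair the libraries (r = 0.029 between the replicate differences of the genotypes over 20547 intervals). All 203 recomputed differences of the 21 named common intervals kept their sign. Since 20 of the 21 were chosen by smallest p in these same lists, this follows largely from the choice. Settings in which an interval lost a peak are not among the 203. Depth is unknown, so an absent peak does not show closed chromatin, and 2 libraries per genotype limit every test.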
